A study of Mus musculus with 6 samples.

Results

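The perinuclear theca is the dense cytoskeletal shell between the nucleus of a sperm cell and the acrosome and plasma membrane around it. Its best known proteins and a set of sperm actin-like, actin-capping and profilin proteins were followed here as a group of 9 genes, Cylc1, Cylc2, Ccin, Actl7a, Actl7b, Actl9, Capza3, Pfn3 and Pfn4. They were taken by gene name from the 55711 entries of the deposited table, and all 9 had an entry. Testis RNA was sequenced from 3 heterozygous samples used as control and 3 labelled as Tmc7 knockout, all of strain C57BL6, and the series asked which transcripts differ between the genotypes. The labels give no age and do not describe the allele, and the controls carry the heterozygous genotype rather than wild type. Nor do they tie each sample to its own animal, and the p-values therefore reflect only how these samples varied, a variation that may be technical.

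The theca is laid down during the spermatid stages. The cylicins are highly basic proteins of this shell, and calicin is a Kelch-repeat protein of its hind part, the calyx. ACTL7A and ACTL9 are testis actin-like proteins linked to attachment of the acrosome to the nucleus, and ACTL7B is their close relative. CAPZA3 is the alpha subunit of the capping protein that closes the fast-growing ends of actin filaments in germ cells. Many profilins bind actin monomers, but not every member of the family need do so, and binding by PFN3 or PFN4 was not measured here. Deletion of several of these genes in mice is known to give misshapen sperm heads and male infertility.

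Libraries held between 17059486 and 19343479 reads, worked back from FPKM. FPKM is a count of fragments divided by gene length in kilobases and scaled by 1 value for each library. That value did not follow the recovered total alone. For 1 read, FPKM times length was 54.0 in control library 2 (18528046 reads). In library 3 labelled knockout, with fewer reads (18140921), it was 51.3. What else entered the scaling was not tested. Tmc7 itself averaged 38.0 ± 0.981 FPKM (control) and 40.2 ± 4.57 FPKM (labelled knockout, SD, n = 3 each), so its transcript level does not check the labels and directions rest on them alone. Sypl averaged 13.3 ± 0.751 and 11.95 ± 1.65 FPKM. Tnp2 and Prm1, transition protein and protamine of condensing spermatids, ranked 1 and 2 of 22046 protein-coding genes, and the summed level of 5 epididymal markers stayed between 1.98 and 4.29 FPKM in all 6 libraries. Libraries 2 and 3 labelled knockout stood apart from the other 4: 0.335% and 0.281% of their reads fell in gene models of small and ribosomal RNAs, against 0.0949% to 0.105% elsewhere. Library 1 labelled knockout lay above all controls for 4 of the 7 genes of the group that were above 0 (Cylc1, Cylc2, Ccin and Actl7a) and inside the control range for the other 3.

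Most of the 9 genes are compact. Ccin (ENSMUSG00000070999, chromosome 4 from 43983483 to 43985423 in GRCm38), Actl7a (ENSMUSG00000070979, chromosome 4 from 56743413 to 56744925), Actl7b (ENSMUSG00000070980, chromosome 4 from 56740005 to 56741443), Actl9 (ENSMUSG00000092519, chromosome 17 from 33432896 to 33434268) and Pfn3 (ENSMUSG00000044444, chromosome 13 from 55414688 to 55415232) each have 1 exon in GENCODE M21. Capza3 (ENSMUSG00000041791, chromosome 6 from 140041252 to 140042778) has at most 2 exons. Cylc2 (ENSMUSG00000039555, chromosome 4 from 51216678 to 51230272) and Pfn4 (ENSMUSG00000020639, chromosome 12 from 4769022 to 4778813) have up to 5, and Cylc1 (ENSMUSG00000073001, chromosome X from 111110418 to 111125854) has up to 6. Actl7a and Actl7b lie back to back on opposite strands with 1969 bases between them. The Capza3 and Plcz1 genes also point away from each other, and their annotated 5' ends overlap by 206 bases.

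The upstream sequences of 6 of these genes are shown because they carry similar short words. Many genes switched on in spermatids have a cAMP response element before their start, the site of the factor CREM, whose full form is TGACGTCA. In RefSeq windows of GRCm38.p6 from 250 bases before to 50 bases after the start, 7 of the 9 genes had an entry. Allowing any base at 1 position, as TGANGTCA on either strand, 5 of the 7 windows held the word (Cylc1, Ccin, Actl7a, Actl7b and Actl9), against 8.83% of all 32851 windows of that length. The full TGACGTCA, which is also counted among TGANGTCA, was in 1 of 7 (Ccin), against 1.79% of all windows. In the lines that follow, each run reads 5' to 3' on the gene's strand and ends, except for Pfn3, at the base before the RefSeq start. Capitals mark TGANGTCA or its reverse complement. For Pfn3, whose window lies in a UTR of Slc34a1, 30 bases are shown, from 64 to 35 bases before the start, with the shorter word TGACG and its reverse complement in capitals.
Ccin, chr4:43983354-43983503, plus strand: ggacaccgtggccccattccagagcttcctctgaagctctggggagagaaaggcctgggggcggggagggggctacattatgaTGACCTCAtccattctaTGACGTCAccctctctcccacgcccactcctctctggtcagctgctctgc
Actl9, chr17:33432749-33432898, plus strand: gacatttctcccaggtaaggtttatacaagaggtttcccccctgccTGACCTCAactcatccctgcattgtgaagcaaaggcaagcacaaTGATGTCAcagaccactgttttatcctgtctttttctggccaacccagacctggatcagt
Actl7a, chr4:56743272-56743421, plus strand: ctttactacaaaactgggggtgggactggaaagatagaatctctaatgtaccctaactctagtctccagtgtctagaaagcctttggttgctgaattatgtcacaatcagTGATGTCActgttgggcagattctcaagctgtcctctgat
Actl7b, chr4:56741426-56741575, minus strand: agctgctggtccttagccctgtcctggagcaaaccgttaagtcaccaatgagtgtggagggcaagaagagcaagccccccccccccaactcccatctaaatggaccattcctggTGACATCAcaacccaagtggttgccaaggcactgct
Cylc1, chrX:111110268-111110417, plus strand: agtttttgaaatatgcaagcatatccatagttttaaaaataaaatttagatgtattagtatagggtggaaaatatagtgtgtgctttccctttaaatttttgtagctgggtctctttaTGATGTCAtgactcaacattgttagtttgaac
Pfn3, chr13:55415267-55415296, minus strand: ctgTGACGtttgccttaCGTCAcagccccg

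The word nearest the start began 32 bases before it in Cylc1, 36 in Actl7b, 40 in Actl7a, 50 in Ccin and 60 in Actl9. Ccin and Actl9 held another, TGACCTCA, at 67 and 104 bases before the start. Pfn3 had TGACG and its reverse complement at 61 and 47 bases before the start, a word found in 20.81% of all windows, and Pfn4 had none of the 3 words. These distances are from the RefSeq start, which differs from the GENCODE M21 start for some genes, Ccin and Actl7b among them. The Pfn4 window, from 4769045 to 4769344, lies wholly inside its GENCODE gene, which begins at 4769022. Bases before that GENCODE start were therefore not searched. Among the comparison lists, the word TGANGTCA was in the windows of 12 of 20 late spermatid marker genes and 3 of 7 other theca and acrosome-region genes. The windows of 1 of 5 other testis actin-related genes, 1 of 8 Kelch-domain genes and 1 of 24 widely expressed actin cytoskeleton genes held the word. It was in 3 of 9 round spermatid, 3 of 10 spermatocyte, 2 of 4 peritubular myoid and 2 of 4 epididymal marker genes, and in 0 of 8 spermatogonia, 0 of 6 Sertoli, 0 of 5 Leydig cell, 0 of 6 macrophage, 0 of 3 endothelial and 0 of 5 blood marker genes. The words were chosen after the sequences had been read, a match is a match of letters and not a measured site, and no test was made.

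Actl7b and Pfn3 were listed at 0 in all 6 libraries, while Actl7a, the neighbour of Actl7b, was at 128 FPKM or more in each. Both genes at 0 are covered by another gene model on the opposite strand. The predicted gene Gm26657 covers 1308 of the 1439 exon bases of Actl7b (90.9%) and was also at 0 in every library. An exon of Slc34a1, which encodes a phosphate transporter, covers all 545 bases of Pfn3, and Slc34a1 was at no more than 0.026 FPKM. Of the other 7 genes, Capza3 and Pfn4 shared 7.01% and 5.15% of their exon bases with other genes and 5 shared none. Across the table, 193 of 275 protein-coding genes with 90% or more of their exon bases in other genes were at 0 in all libraries (70.2%), against 2071 of 15485 genes with no such overlap (13.4%). Among single-exon genes the shares were 91.7% (44 of 48) and 39.4% (443 of 1125). The sources used here do not give how reads in shared bases were counted, so the zeros of Actl7b and Pfn3 cannot be read as absent transcripts, and no comparison was made for them.

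**Figure D1:**
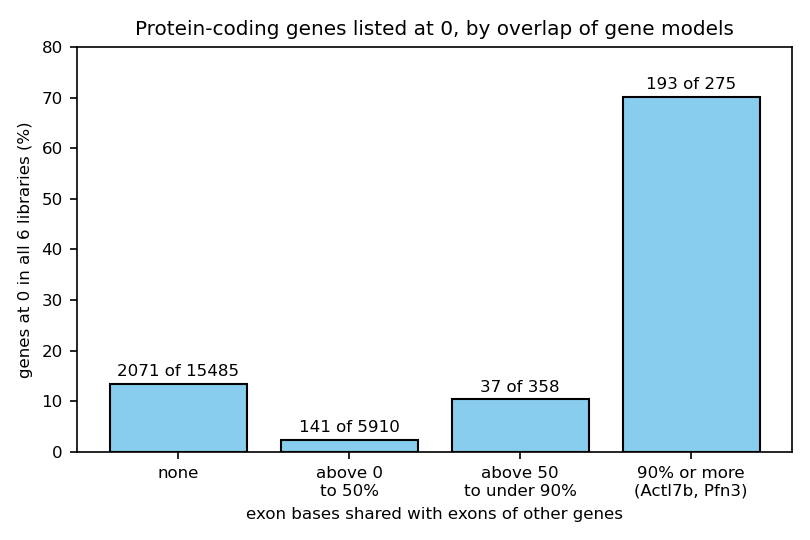
Percent of protein-coding genes listed at 0 in all 6 libraries (y axis), by the percent of their exon bases that lie in exons of other genes (x axis); numbers over the bars are genes at 0 of genes in the bin. The bar for 90% or more, which holds Actl7b and Pfn3, stands at 70.2%, and the others are at 13.4% or below.

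The other 7 genes were among the better expressed of the testis. By FPKM, which is per length, Actl9 was highest with a mean of 265 over the 6 libraries (rank 118 of 22046 protein-coding genes), followed by Actl7a at 166, Ccin at 113, Cylc2 at 86.4, Capza3 at 85.96, Pfn4 at 33.5 and Cylc1 at 26.0. Each gene was above the next in all 6 libraries, with 1 exception. Cylc2 was above Capza3 in 2 libraries and below it in 4, so their order is not set by these data.

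No gene passed the test between the groups. With limma on log2(FPKM + 1), 0 of 19168 genes averaging 0.5 FPKM or more had a Benjamini-Hochberg adjusted p under 0.05 (0% of genes tested), 741 had an unadjusted p under 0.05 (3.87%), and the smallest adjusted p was 0.328. Of the 7 tested genes of the theca group 0 were called in this fit, and 0 had an unadjusted p under 0.05, where 2.38% of all genes had one with the lower mean in the libraries labelled knockout. With limma-voom on the recovered reads 0 of the 7 were called, against 1 of 20556 genes (0.00486%). All 7 had the lower mean in the libraries labelled knockout, against 51.4% of all genes tested, with a median log2 difference of -0.12 against -0.01 over all genes. In bulk tissue fewer cells of a type and less RNA per cell cannot be told apart. Without library 3 labelled knockout 3 of the 7 had the lower mean and the median was 0.00033. The groups overlapped for every one of the 7, whereas they did not overlap for 8.56% of all genes tested and all 3 libraries labelled knockout lay below all controls for 4.41%. Libraries 2 and 3 labelled knockout both lay below the other 4 libraries for 4 of the 7, Cylc1, Ccin, Capza3 and Pfn4, against 17.5% of all genes tested.

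**Figure D2:**
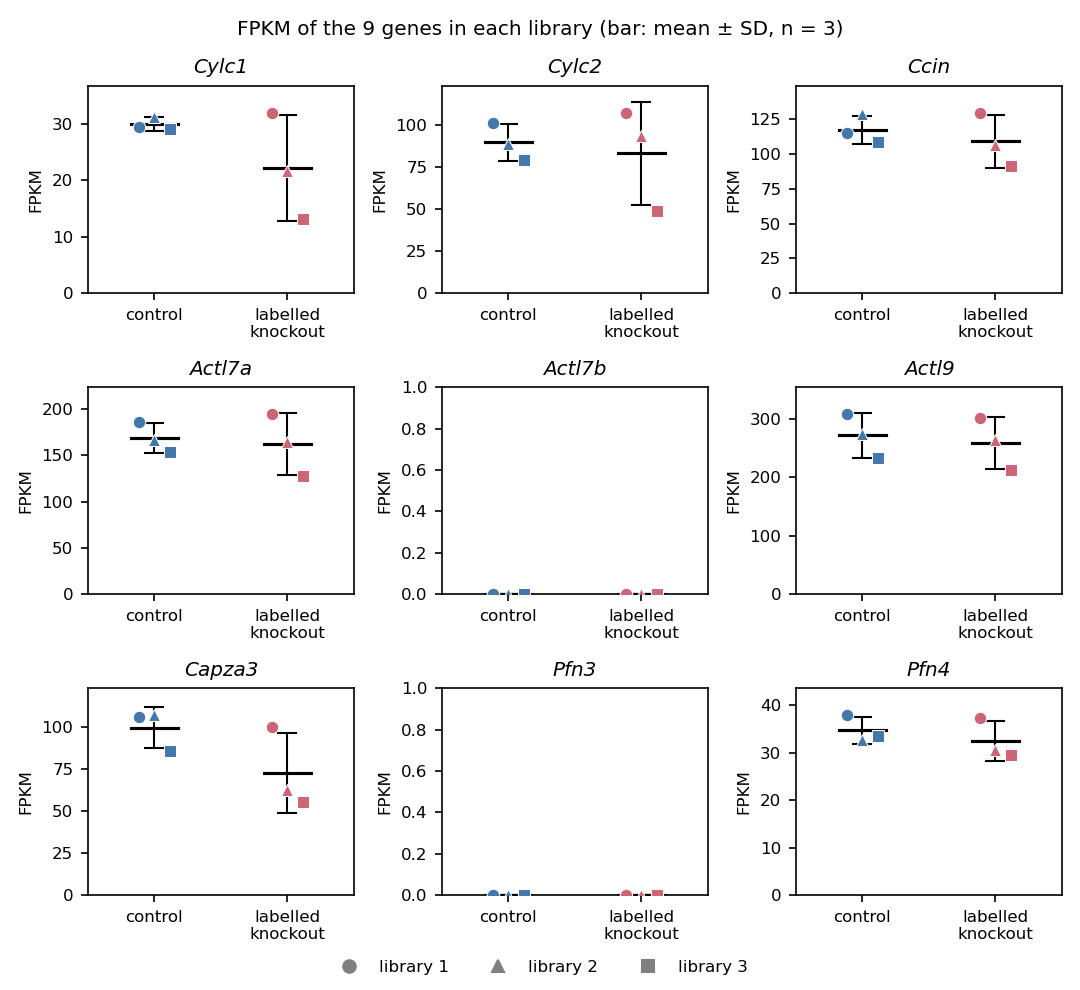
FPKM of the 9 genes (y axis, linear from 0) in 3 control and 3 labelled knockout libraries; each symbol is 1 library, and bars give the mean ± SD. Library 3 labelled knockout is the lowest point for each of the 7 genes above 0, and library 1 labelled knockout lies above the lowest control for each.

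Cylc1 and Cylc2 encode the cylicins. Cylc1 read 29.4, 31.2 and 29.0 FPKM across the control libraries, with 31.9, 21.5 and 13.2 FPKM across those labelled knockout. The 3 controls thus lay close together and the other 3 libraries spread over a 2.42-fold range, from above every control to well below them. The log2 difference was -0.50 (SE 0.27, 95% limits -1.14 and 0.15, limma adjusted p = 0.868). Without library 3 labelled knockout it was -0.18, and without library 1 it was -0.79 (limma adjusted p = 0.164).

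Cylc2 read 101, 88.9 and 78.9 FPKM across the control libraries, with 107, 93.6 and 48.6 FPKM across those labelled knockout. Here library 2 labelled knockout lay inside the control range, and library 3 alone lay below it. The log2 difference was -0.18 (SE 0.28, limma adjusted p = 0.904). It was 0.17 without library 3 labelled knockout, -0.40 without library 1, -0.30 without library 2 and -0.09 without control library 1. The log2 ratio of Cylc1 to Cylc2 within a library came to -1.78, -1.51 and -1.44 for the controls and to -1.75, -2.12 and -1.88 for those labelled knockout, so the 2 groups overlapped in this ratio as well.

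Ccin, the gene for calicin, read 115, 128 and 109 FPKM across the control libraries, with 129.6, 106 and 91.7 FPKM across those labelled knockout. Its values spread over a 1.41-fold range, less than the cylicins, and the highest and the lowest both came from libraries labelled knockout. The log2 difference was -0.12 (SE 0.14, limma adjusted p = 0.879). It was -0.25 without library 1 labelled knockout, 0.00033 without library 3 and -0.05 without control library 2. Of 8 other Kelch-domain genes, 6 had the lower and 2 the higher mean, with a median log2 difference of -0.11, and 0 were called. Klhl10, which works in a ubiquitin ligase of spermatids, was the most abundant of them, with 187, 168 and 139 FPKM among controls and 194, 147 and 108 FPKM among libraries labelled knockout.

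Actl7a and Actl9, the actin-like genes, followed each other most closely. Actl7a read 186, 167 and 154 FPKM across the control libraries, with 195, 164 and 128 FPKM across those labelled knockout. Actl9 read 308, 274 and 233 FPKM across the control libraries, with 302, 264 and 212 FPKM across those labelled knockout. In both genes library 2 labelled knockout lay inside the control range and library 3 below it, while library 1 was above all controls for Actl7a and inside their range for Actl9. Their centred log2 profiles differed by a root mean square of 0.05 over the 6 libraries, the smallest of the 21 pairs of the 7 genes, which ran up to 0.34 for Cylc1 and Pfn4. The log2 differences were -0.07 and -0.08 with standard errors of 0.17 each (limma adjusted p = 0.931 and 0.929). With 1 library left out they lay between -0.21 and 0.087 for Actl7a and between -0.19 and 0.062 for Actl9, lowest without library 1 labelled knockout and highest without library 3.

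Of the 5 other testis actin-related genes, Actrt1 had the widest range, 2.55-fold, close to the 2.42-fold of Cylc1. Actrt1, which like Cylc1 lies on the X chromosome, read 11.7, 10.5 and 11.4 FPKM across the control libraries, with 12.004, 7.36 and 4.71 FPKM across those labelled knockout. Actrt2 was at 309 ± 37.6 and 254 ± 62.0 FPKM, Actrt3 at 25.5 ± 1.97 and 22.1 ± 5.22 FPKM, and Actl11 at 129 ± 21.1 and 117 ± 35.9 FPKM (SD, n = 3, control and labelled knockout). Actl10 was the exception in sign, at 15.8 ± 0.889 and 18.9 ± 3.14 FPKM. In all, 4 of these 5 had the lower mean and 0 were called, with a median log2 difference of -0.22.

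Capza3, the germ cell capping subunit, read 106, 107 and 85.5 FPKM across the control libraries, with 99.5, 62.4 and 55.6 FPKM across those labelled knockout. Libraries 2 and 3 labelled knockout lay below all controls, and library 1 lay above control library 3. The log2 difference was -0.49 (SE 0.22, 95% limits -1.01 and 0.03), with an unadjusted p of 0.0606 and a limma adjusted p of 0.868. It was the smallest p of the 7 genes. Without library 1 labelled knockout the difference was -0.74 (limma adjusted p = 0.141), and without library 3 it was -0.32.

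The capping subunits of most cells covered a smaller range, 1.31-fold for Capza1, 1.38-fold for Capza2 and 1.26-fold for Capzb against 1.92-fold for Capza3. Capza1 read 70.9, 72.6 and 78.2 FPKM across the control libraries, with 81.8, 69.1 and 62.5 FPKM across those labelled knockout. Capzb, the beta subunit, was at 73.6 ± 8.19 and 72.0 ± 7.77 FPKM (SD, n = 3 each). The log2 ratio of Capza3 to Capza1 and Capza2 together came to 0.45, 0.41 and -0.01 for the controls and to 0.15, -0.26 and -0.30 for those labelled knockout, with group means of 0.29 ± 0.26 and -0.14 ± 0.25 (SD, n = 3 each) and library 1 labelled knockout inside the control range. Plcz1, the sperm factor that starts calcium oscillations in the egg and the back-to-back neighbour of Capza3, read 101, 95.3 and 72.3 FPKM across the control libraries, with 102, 61.9 and 49.1 FPKM across those labelled knockout. The log2 ratio of Capza3 to Plcz1 stayed between -0.03 and 0.24 in all 6 libraries, so both genes were low in the same libraries. The 2 gene models share 107 exon bases, and whether counting used strand was not given in the sources used here.

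Pfn4, a testis profilin, read 37.9, 32.7 and 33.4 FPKM across the control libraries, with 37.2, 30.5 and 29.6 FPKM across those labelled knockout. It had the narrowest range of the 7 genes, 1.28-fold, and its log2 difference was -0.10 (SE 0.12, limma adjusted p = 0.878). It was -0.20 without library 1 labelled knockout, -0.058 without library 2, -0.036 without library 3 and -0.034 without control library 1. Of the profilins of most cells, Pfn1 averaged 31.03 ± 0.849 and 35.6 ± 4.57 FPKM and Pfn2 at 39.7 ± 0.965 and 37.1 ± 2.74 FPKM (SD, n = 3 each). Over all 6 libraries the levels per length averaged 33.3 FPKM for Pfn1, 38.4 FPKM for Pfn2 and 33.5 FPKM for Pfn4.

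**Figure D3:**
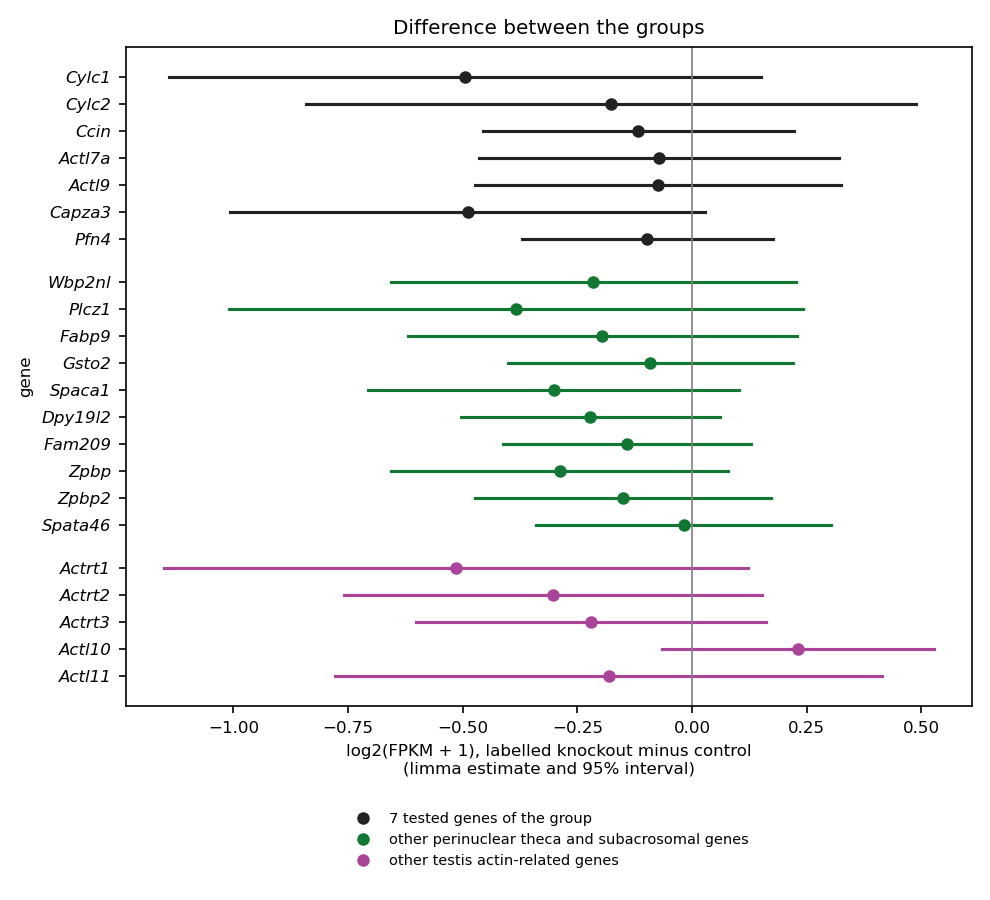
Log2(FPKM + 1) difference between the libraries labelled knockout and controls (x axis) with the 95% interval from limma. Rows (y axis) are the 7 tested genes of the group, 10 other theca and acrosome-region genes and 5 other testis actin-related genes. The legend calls the 10 perinuclear theca and subacrosomal genes, though some belong to the acrosome or nuclear membrane. Every interval crosses 0, and Cylc1, Capza3 and Actrt1 lie farthest to the left.

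A list of 10 other genes of the theca and the acrosome region also holds genes of the acrosome (Zpbp, Zpbp2, Spaca1) and nuclear membrane (Dpy19l2, Fam209). All 10 had the lower mean in the libraries labelled knockout, with a median log2 difference of -0.21 and 0 called. Fabp9, a fatty acid binding protein of the theca, was at 294 ± 52.9 and 257 ± 46.7 FPKM, and Wbp2nl, a theca protein brought into the egg, at 46.4 ± 7.52 and 40.2 ± 8.73 FPKM (SD, n = 3 each). Library 2 labelled knockout was the lowest of the 6 for 7 of these 10, Spaca1, Zpbp and Zpbp2 among them, and library 3 for 3. For the 7 tested genes of the group library 3 was the lowest in 7 of 7, against 22.8% of all genes tested. This is not particular to the group. Library 3 was also lowest for 18 of 22 late spermatid markers and 4 of 5 other testis actin-related genes. It was lowest for 3 of 10 round spermatid markers and 7 of 27 widely expressed actin genes. These orders are by FPKM and depend on its scaling. For 1 read, FPKM times length was smallest in library 3 labelled knockout (51.3), though library 1 labelled knockout held more reads (19343479, 52.9). Pfn4 had 2756 of 18140921 reads in library 3 and 2528 of 17397662 in library 2, a smaller share in library 2. The other orders were not redone on recovered reads. The difference between the group and the 10 theca and acrosome-region genes was not tested. By contrast the 27 widely expressed actin, capping, profilin, cofilin and Arp2/3 genes had 12 lower and 15 higher means, a median log2 difference of 0.01 and 0 called.

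Late spermatid markers were lowest in library 3 labelled knockout, as were the 7 genes. The mean centred log2 level of 22 such markers, none of them a gene of the group, stood at 0.44, 0.25 and -0.18 for controls 1 to 3 and at 0.33, -0.26 and -0.57 for libraries 1 to 3 labelled knockout. The 7 genes did not follow this level in every library: in library 2 labelled knockout Cylc2 stood 0.41 above it and Actl7a and Actl9 0.26 each, and in control 3 Cylc1 stood 0.39 above it. In library 3 labelled knockout Pfn4 stood 0.40 above this level, Ccin 0.28, Actl9 0.26 and Actl7a 0.21. Their distances from it there were -0.01 for Capza3, -0.20 for Cylc2 and -0.31 for Cylc1. All 22 had the lower mean (median log2 difference -0.33, 0 called), and their summed level ran from 14780 to 24640 FPKM in controls and from 11220 to 21380 FPKM in those labelled knockout, with none at 0. With the late spermatid level as a covariate, the log2 differences of Capza3 and Cylc1 were -0.22 and -0.20, and those of the other 5 genes lay between 0.01 and 0.14 (limma adjusted p = 0.9996 for each of the 7).

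Sertoli cell and macrophage markers had higher means in the libraries labelled knockout, and Leydig cell markers mostly lower ones. All 12 Sertoli markers, of which Clu and Aard were the most abundant, had the higher mean in the libraries labelled knockout, with a summed level of 496 to 528 FPKM in controls and 497 to 651 FPKM in the others, and none at 0. All 10 macrophage markers, led by Lyz2 and Cd74, also had the higher mean, with sums of 61.2 to 68.5 and 64.6 to 91.3 FPKM and none at 0. None of either list was called. Of the other cell type lists, 9 of 10 round spermatid, 9 of 12 spermatocyte, 4 of 10 spermatogonia and 6 of 7 tested Leydig cell markers had the lower mean, 5 of 6 peritubular myoid and 4 of 5 tested endothelial markers had the higher mean, and 0 were called. The highest Sertoli and macrophage levels were in libraries 2 and 3 labelled knockout, where the small RNA share was also highest. The 7 Leydig cell markers, led by Cyp17a1 and Insl3 and with none at 0, summed to 207 FPKM in library 3 labelled knockout, against 328 to 370 FPKM in the other 5 libraries. The 5 blood markers, led by Hba-a1 and Alas2, summed to 20.2, 7.03 and 46.0 FPKM in controls 1 to 3. In libraries 1 to 3 labelled knockout they summed to 8.32, 7.26 and 55.5 FPKM, and 0 were called. Control library 3 was the lowest control for 6 of the 7 tested theca genes. The part of these cell types in the levels of the theca genes was not tested.

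**Figure D4:**
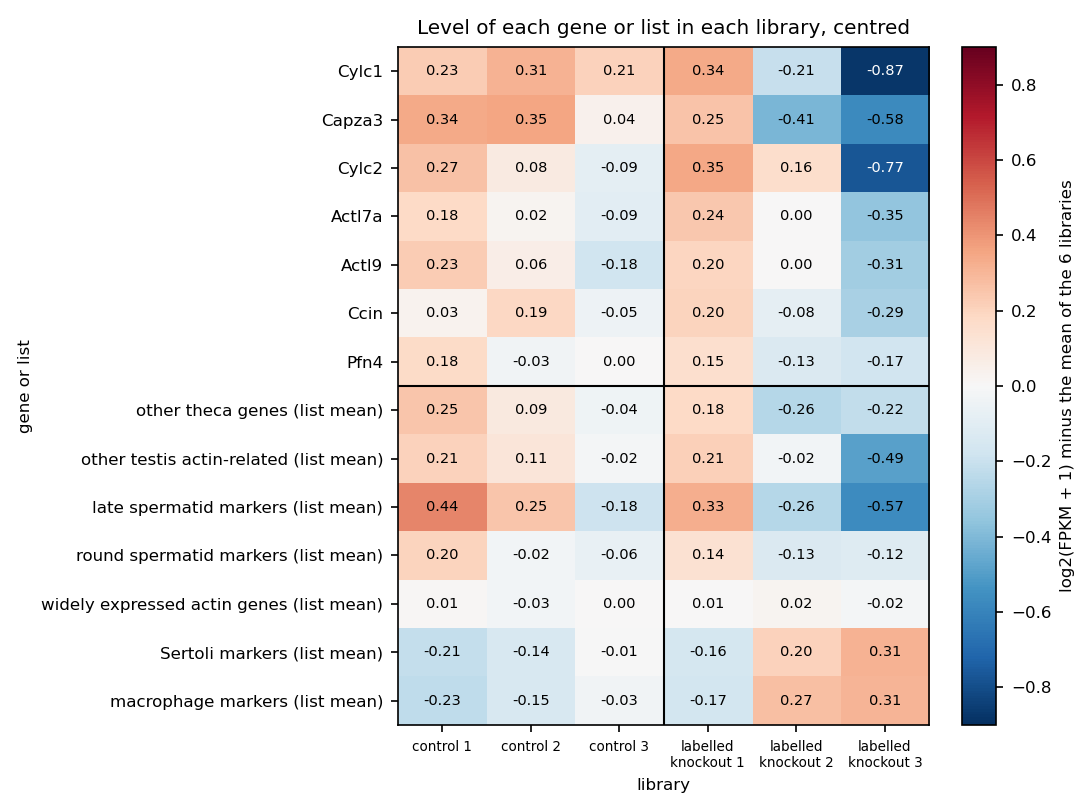
Centred log2(FPKM + 1) of the 7 tested genes and mean centred level of 7 gene lists (rows) in each library (columns); the colour and the printed value give the distance from the mean of the 6 libraries. Cylc1 reaches -0.87 in library 3 labelled knockout. The list mean of the widely expressed actin genes stays within 0.03 of 0, while single genes of that list vary more, up to 2.13-fold for Arpc1b. The Sertoli and macrophage lists are highest in libraries 2 and 3 labelled knockout, where the late spermatid list is lowest.

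Genes with the profile most like that of Cylc1, the widest of the 7, were sought among 7085 protein-coding genes averaging 5 FPKM or more. By the root mean square difference of centred log2 profiles over the 6 libraries, the nearest were Satl1 (0.07), Actrt1 (0.08) and Ppef1 (0.08), all 3 on the X chromosome, which holds 171 of the genes compared (2.41%). Satl1 read 18.9, 18.7 and 17.1 FPKM across the control libraries, with 20.65, 12.02 and 8.18 FPKM across those labelled knockout. The nearest to Pfn4, the narrowest, were Tex33, Cct4 and Stk33 (0.02, 0.02 and 0.03), on chromosomes 15, 11 and 7. With 6 libraries this likeness is a description.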

How the data were processed

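RNA of 6 mouse testis samples was sequenced, 3 controls and 3 labelled knockout, grouped and numbered from their titles. Per the labels' protocols the RNA was extracted with Trizol and a SMARTER mRNA-Seq kit was used for the libraries. FPKM values, with the length and position of every gene, were deposited in 1 table. Builds GRCm38 and mm10 appear in the submitters' processing notes. The aligner, the counter and any strand setting were not given in the sources used here. Multiplying FPKM by gene length gave multiples of a constant for each library, whole within 0.001 reads for 100% of values above 0, and these multiples are the recovered reads. Of the deposited IDs, 54495 were in GENCODE M21, 98.33% of them with identical coordinates, and 98.01% had a length equal to the union of their exons.

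Tests used log2(FPKM + 1), which understates changes of low genes, for genes averaging 0.5 FPKM or more, with limma 3.58.1 in R 4.3.3 (a trend of variance on mean, and only the group in the model) and Benjamini-Hochberg adjusted p under 0.05 over all genes. The procedure was also run on simulated counts with independent libraries and the same dispersion for every gene. Those settings leave out shifts shared by many genes, so that run does not show how the procedure does on libraries like these. The 9 genes, the comparison lists and the alternatives were chosen with earlier results of these data known. Named genes were Tmc7, Sypl, the 9, genes of the theca, actin and Kelch lists, the 2 most abundant markers of a cell type list, and the 3 genes nearest in profile to the genes of widest and narrowest range. Genes whose models overlap Actl7b, Pfn3, Capza3 and Pfn4 were named after their values were seen. Alternatives covered pseudocounts, filters, scalings, the replicate number as a block, library weights, no trend, limma-voom on the recovered reads, the late spermatid level as a covariate and each library left out. Counts of lower means and within-library ratios under these settings were added after the data were seen.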

Additional observations from a re-analysis of the deposited data

How the results depend on the processing

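Across 17 alternative settings, 108 of 119 log2 differences of the 7 tested genes kept their direction and stayed above the adjusted p threshold, and 11 changed sign without passing it. None of the 7 was called under any of them (limma adjusted p from 0.141 to 1). Unadjusted limma p did fall under 0.05 in some settings. For Capza3 it was 0.035 with quantile normalization, 0.0097 with library weights, 0.027 with limma-voom and 0.0013 without library 1 labelled knockout. For Cylc1 it was 0.023 with library weights and 0.0061 without library 1 labelled knockout. The share of all genes under 0.05 in these settings was not counted. Over all genes the count of calls was 0 under each setting but limma-voom on the recovered reads, which called 1 gene, none of the group. The median log2 difference of the 7 genes was -0.07 with quantile normalization, -0.20 with library weights and 0.03 with the late spermatid covariate, and lay between -0.25 and 0.00033 with 1 library left out. Signs changed with the late spermatid covariate for Cylc2 (0.14), Ccin (0.026), Actl7a (0.11), Actl9 (0.11) and Pfn4 (0.011), leaving 2 of 7 lower. They changed without library 3 labelled knockout for Cylc2 (0.17), Ccin (0.00033), Actl7a (0.087) and Actl9 (0.062), without control library 1 for Actl9 (0.02), and with quantile normalization for Actl7a (0.013). With 1 library left out the lowest values were -0.40 for Cylc2, -0.21 for Actl7a and -0.19 for Actl9, each without library 1 labelled knockout. The cause was not tested.

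With the replicate number as a block, the log2 differences were unchanged by construction, 0 genes of the table and 0 of the 7 were called, and Capza3 had an unadjusted p of 0.017 (limma adjusted p = 0.662). Its SE was 0.14 with the block and 0.22 without. The deviations of same-numbered samples from their group means correlated at 0.29, 0.04 and 0.20 across genes for numbers 1, 2 and 3. Libraries 1 and 3 labelled knockout correlated best with the control of their own number, and library 2 with control 3 (0.17). Samples of unlike number correlated from -0.32 to 0.17. The labels do not say what the numbers stand for, so the main fit left them out, and a batch shared by number cannot be told from these labels. The 7 genes had at least 513 reads in every library, the fewest for Cylc1 in library 3 labelled knockout.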

Other observations

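Of the 50 protein-coding genes with the profile nearest to Cylc1, 14 lie on the X chromosome (28%), against 2.41% of the 7085 genes compared. For Capza3 it was 8 of 50, for Cylc2 2 of 50 and for Actl7a 1 of 50. Of the 171 X-linked genes averaging 5 FPKM or more, 108 had the lower mean in the libraries labelled knockout (63.2%, median log2 difference -0.09), against 49.6% of 6914 genes on other chromosomes (median 0.0017). Library 3 labelled knockout was the lowest of the 6 for 79 of the 171 (46.2%) and for 28.0% of the others. These counts were chosen after the values were seen, and no test of them was made.

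Tsga8, a round spermatid gene chosen here after its values were seen, had the higher mean where 9 of the 10 round spermatid markers had the lower. It averaged 108 ± 12.8 FPKM (control) and 145 ± 24.4 FPKM (labelled knockout, SD, n = 3 each), a log2 difference of 0.41 with an unadjusted p of 0.0325 (limma adjusted p = 0.868). It lies on the X chromosome.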
